A study of Mus musculus with 2 samples.

Results

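Transcripts of 10 genes of the NF-κB system were compared between a WT and an Igfbp7-/- library of lactating mouse mammary gland cells. The paper calls these mammary epithelial cells (MECs), although markers of other cell types were present in both libraries. The genes were the 5 subunit genes Nfkb1, Nfkb2, Rel, Rela and Relb, the inhibitor genes Nfkbia and Tnfaip3, the genes of the nuclear cofactors Nfkbiz and Bcl3, and the kinase gene Ikbkb. They were picked by symbol from the 25810 named genes of each library, and all 10 were found. Each lay above 30 RPM (the read count scaled to the total of reads that the authors set for its library) in both libraries, and thus above the minimum of 1 RPM in either library that 14026 genes passed. The transcripts of Nfkbiz and Tnfaip3 were at least 1.5 times as abundant in Igfbp7-/- as in WT, and that of Nfkb1 was lower by the same measure, beside 21.4% of all genes that were higher and 23.0% that were lower. The remaining 7 genes differed by less.

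Each genotype had 1 library, made from cells of inguinal glands taken on lactation day 3. The Igfbp7-/- mice lack the first coding exon of Igfbp7 in all tissues after Cre recombination in embryonic stem cells. The labels give C57BL/6 as the genetic background of both libraries, whereas the methods state that the mutants were made on the CD1 background. The age of the mice and the number pooled in a library were not found in the sources used here. Before RNA extraction, the glands were dissociated into single-cell suspensions. Cells bearing CD45 (leukocytes), CD31 (endothelium) and Ter119 (red cell lineage) were then removed with magnetic beads, and the labels name CD35 in place of CD31. The part of this handling in the transcript levels was not tested. With 1 library per genotype no spread between animals could be measured, so none of the differences was tested. The intervals given are 95% intervals on read pairs and cover counting error only.

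The ratio of count to RPM gave totals of 34327854 reads in WT and 35016847 in Igfbp7-/-, and what these totals include is not stated. The listed genes held 82.4% of these reads in WT and 72.3% in Igfbp7-/-, and ribosomal RNA rows held 2.95% and 3.15%. At this depth 3 reads correspond to 0.0874 and 0.0857 RPM. The deleted gene, Igfbp7, gave 5224 reads in the WT library and 37 in the library labelled Igfbp7-/-, or 152.2 and 1.06 RPM, the direction that the genotypes imply. All ratios below are those of Igfbp7-/- over WT on the log2 scale, and their median over the 14026 genes was 0.03.

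NF-κB proteins are dimers built from 5 related subunits. In resting cells they are held in the cytoplasm by IκB proteins such as the product of Nfkbia, until the IκB kinase complex, whose catalytic subunits are encoded by Ikbkb and Chuk, marks the inhibitor for degradation. The freed dimers switch on genes of inflammation, adhesion and cell survival, and also genes that end the response, among them Nfkbia and Tnfaip3. In the mammary gland the pathway is known for its activity in pregnancy, when the receptor RANK signals through the IκB kinase complex to drive alveolar growth, and again in involution after weaning.

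The DNA site of NF-κB, the kappaB consensus of 10 bases, lies in the promoters of several of these genes, and 4 of these sites are shown because they stand in genes that NF-κB is known to act on. RefSeq promoter windows of the GRCm38.p6 build, reaching from 250 bases before to 50 bases after the transcription start, were matched by symbol for 6 of the 10 genes, namely Bcl3, Nfkb2, Nfkbia, Rel, Rela and Tnfaip3. Nfkb1, Nfkbiz, Relb and Ikbkb had none. A match on either strand was found for 5 of the 6 genes, all but Rela, while 5.14% of 27025 genes with such a window held one, as did 6.72% of the 9265 genes that also passed 1 RPM here. In the following lines the bases matching the consensus are in capitals, each sequence reads 5′ to 3′ on the strand of its gene, and where overlapping matches occur the capitals cover them together.
Nfkbia, chr12:55492657-55492686, minus strand: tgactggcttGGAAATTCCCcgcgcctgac
Tnfaip3, chr10:19015411-19015432, minus strand: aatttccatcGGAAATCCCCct
Rel, chr11:23771041-23771070, minus strand: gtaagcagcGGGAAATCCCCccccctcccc
Nfkb2, chr19:46304689-46304718, plus strand: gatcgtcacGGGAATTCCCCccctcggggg
The site of Nfkbia began 29 bases before the start of transcription, that of Tnfaip3 12 bases, that of Rel 92 bases and that of Nfkb2 39 bases. Tnfaip3 held a further match 125 bases before its start, Nfkb2 held further ones, and the only match of Bcl3 began at base 3 of the transcribed part. Of the 4 genes shown, Tnfaip3 was higher in Igfbp7-/- by at least 1.5 times, and Nfkbia, Rel and Nfkb2 were not. A match describes the letters in the window and is no measurement of binding.

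Among the subunit genes, Nfkb1 was the one whose transcript differed by at least 1.5 times. It encodes a precursor that is cut to a DNA-binding subunit without an activation domain of its own, and it lies on chromosome 3 of NCBIM37 (mm9), from 135247619 to 135354511 on the minus strand. Counts were 10436 in WT, equal to 304.0 RPM, and 5752 in Igfbp7-/-, equal to 164.3 RPM. The log2 ratio was -0.89 (interval -0.95 to -0.82), so that WT held 1.85 times as much as Igfbp7-/-, and 15.9% of all genes had a lower ratio.

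Rela and Nfkb2 had nearly equal values in both libraries. Rela, which encodes the subunit with the main activation domain of the canonical dimer, lies on chromosome 19 from 5637483 to 5648130 on the plus strand. With 6232 WT reads against 6411 from Igfbp7-/- (181.5 against 183.1 RPM), its log2 ratio was 0.01 (-0.06 to 0.08). Nfkb2, which encodes the precursor of the non-canonical pathway, lies on the same chromosome from 46379227 to 46386580 and overlaps Psd on the other strand. With 3453 against 3529 reads (100.6 against 100.8 RPM), its log2 ratio was 0.00 (-0.09 to 0.10). Whether counting used strand is not known, so reads of Psd cannot be told apart from those of Nfkb2. The intervals of both genes included a ratio of 1 and left room for differences of no more than about 0.10 on the log2 scale from the counting of reads.

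Relb and Rel were higher in Igfbp7-/-, but by less than 1.5 times. Relb, whose product pairs with that of Nfkb2, lies on chromosome 7 from 20191566 to 20214787 on the minus strand. Its 1892 WT reads (55.1 RPM) compared with 2669 from Igfbp7-/- (76.2 RPM), and its log2 ratio was 0.47 (0.35 to 0.59). Rel, best known from lymphocytes, lies on chromosome 11 from 23641514 to 23670970 on the minus strand. Its 1123 WT reads (32.7 RPM) compared with 1558 from Igfbp7-/- (44.5 RPM), and its log2 ratio was 0.44 (0.28 to 0.60). The threshold of 1.5 times is 0.58 on the log2 scale, just inside the upper end of both intervals, and these were the 2 genes nearest to it from below.

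**Figure D1:**
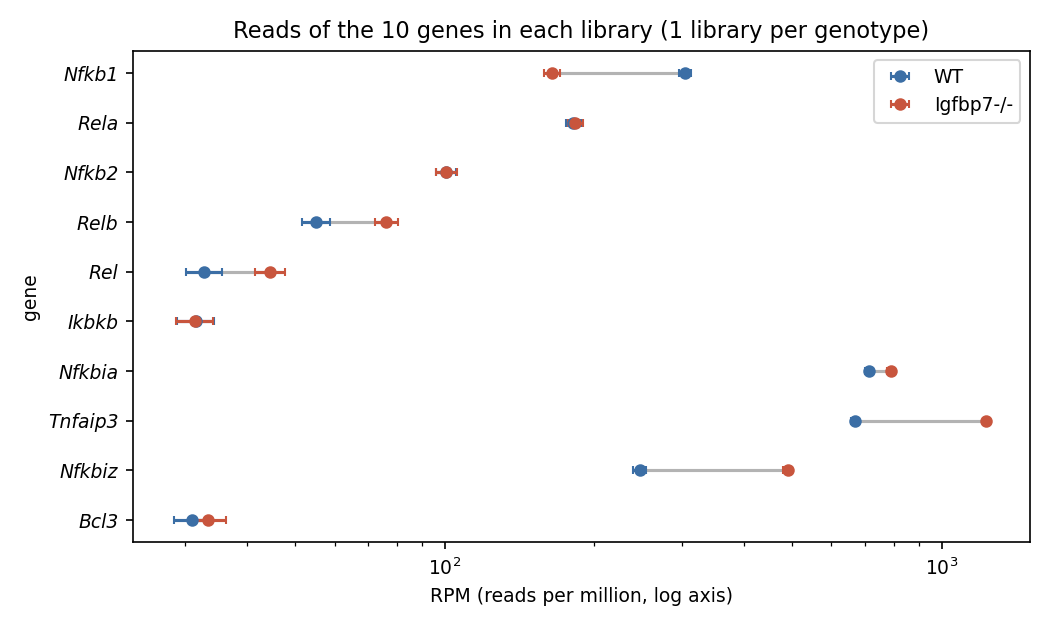
RPM of the 10 genes on a log axis in the WT library (blue) and the Igfbp7-/- library (red), 1 library each, with exact Poisson 95% intervals on read pairs as bars. Nfkb1 is the gene that moves left in Igfbp7-/-, from 304.0 to 164.3 RPM, and Tnfaip3 and Nfkbiz move right, to 1229 and 489.8 RPM.

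The feedback inhibitors were the most abundant of the 10 transcripts in both libraries, and they differed unequally. Nfkbia encodes IκBα, the classical inhibitor that NF-κB itself induces, and lies on chromosome 12 from 56590398 to 56593634 on the minus strand. WT gave 24519 reads, or 714.3 RPM, and Igfbp7-/- gave 27636, or 789.2 RPM, with a log2 ratio of 0.14 (0.11 to 0.18). The difference of 10.5% was larger than counting error but far below 1.5 times, and 56.2% of all genes had a lower ratio.

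Tnfaip3 encodes a ubiquitin-editing enzyme that shuts off signalling below the TNF and Toll-like receptors, and it lies on chromosome 10 from 18720716 to 18735463 on the minus strand. WT gave 22971 reads, or 669.2 RPM, and Igfbp7-/- gave 43021, or 1229 RPM. The log2 ratio was 0.88 (0.84 to 0.91), or 1.84 times as much in Igfbp7-/-, and 87.8% of all genes had a lower ratio.

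Nfkbiz had the highest ratio of the 10 genes. It encodes IκBζ, which unlike IκBα acts in the nucleus as a cofactor of NF-κB on a secondary set of targets, and it lies on chromosome 16 from 55811488 to 55839012 on the minus strand. Reads numbered 8464 in WT, or 246.6 RPM, and 17151 in Igfbp7-/-, or 489.8 RPM. The log2 ratio was 0.99 (0.94 to 1.04), a fold of 1.99. Of all genes, 90.1% had a lower ratio. Bcl3, the gene of the other nuclear cofactor, did not go with it. It lies on chromosome 7 from 20393811 to 20408119 on the minus strand, overlaps the non-coding Gm16175 and Gm16174 on the other strand, and gave 1066 WT reads against 1171 (31.1 against 33.4 RPM). Its log2 ratio was 0.11 (-0.06 to 0.28).

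Ikbkb, the gene of the catalytic kinase that acts on IκBα, had almost the same value in both libraries. It lies on chromosome 8 from 23769684 to 23817061 on the minus strand, opposite the non-coding Gm15346. Counts of 1082 in WT and 1098 in Igfbp7-/- (31.5 against 31.4 RPM) gave a log2 ratio of -0.01 (-0.18 to 0.17). The genes of the other components of the complex were higher. Chuk, its other catalytic kinase, went from 30.3 to 55.5 RPM (log2 ratio 0.87, 0.71 to 1.03). Ikbkg, the regulatory component, which is named here after its values were seen, went from 13.6 to 22.1 RPM (0.69, 0.46 to 0.94).

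By count, 2 of the 10 genes were higher and 1 was lower, a share not above the 21.4% and 23.0% of all genes. Their median log2 ratio was 0.13, beside 0.03 for all genes, and the 3 that differed did so in opposite directions.

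**Figure D2:**
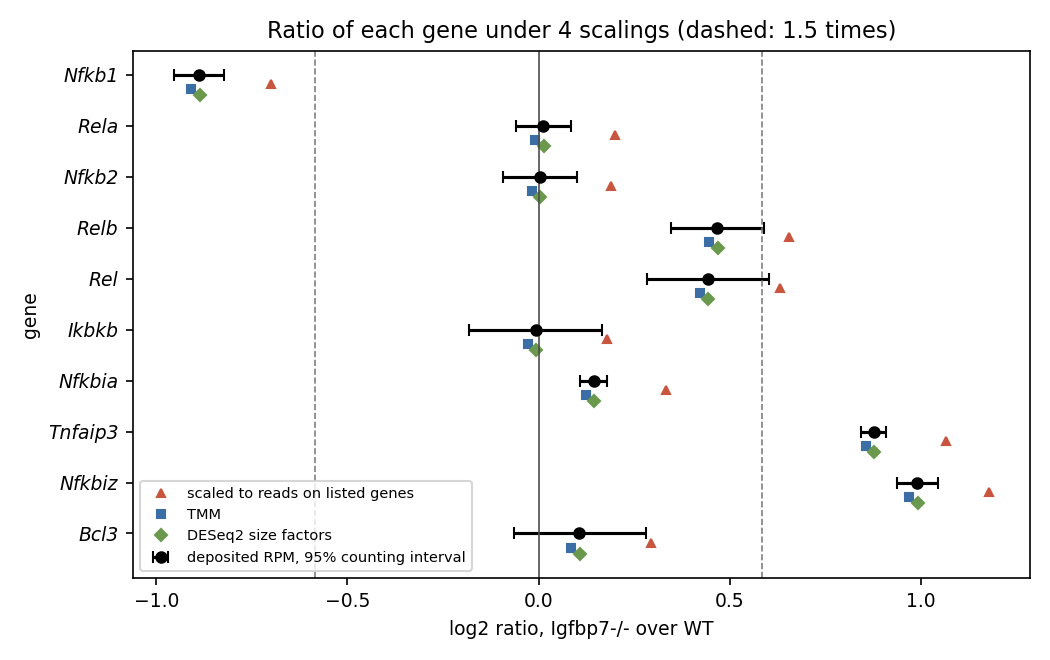
Log2 ratio of Igfbp7-/- to WT for the 10 genes from the deposited RPM (black, with 95% Clopper-Pearson intervals on read pairs) and under 3 other scalings (coloured symbols), with dashed lines at 1.5 times. Nfkb1 stays left of the lower line and Tnfaip3 and Nfkbiz right of the upper line under all 4, while Rel and Relb cross the upper line only when scaled to the reads on listed genes.

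Scaling moved all ratios together. Since a smaller share of the Igfbp7-/- reads lay on listed genes, scaling to the reads on those genes raised the median log2 ratio of all genes by 0.18, and 62.1% of the genes past 1.5 times were then higher in Igfbp7-/- instead of 48.2%. Under it Relb (0.65) and Rel (0.63) passed 1.5 times as well, Nfkbiz reached 1.18, Tnfaip3 1.06 and Nfkb1 -0.70. By construction, such a shift leaves the distances between the 10 genes as they are. The TMM factors of edgeR and the size factors of DESeq2 shifted the median by -0.02 and 0.00. The signs of Rela, Nfkb2 and Ikbkb, whose ratios were close to 1, depended on the scaling.

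Ratios between genes of the same library do not depend on the scaling. The 10 genes form 45 pairs, and the ratio of the 2 genes differed between the libraries by at least 1.5 times in 19 of them. The share among pairs of all genes was not computed, so the 19 cannot be read as particular to these genes. All 9 pairs with Nfkb1 were among the 19, as were 6 of 9 pairs with Nfkbiz and 6 of 9 with Tnfaip3, and none of the 21 pairs without these 3 genes was. These 3 were the genes already past 1.5 times, so the breakdown largely restates their ratios. The ratio of Nfkbiz to Nfkb1 differed most, by 3.68 times (approximate 95% counting interval 3.47 to 3.90), followed by that of Tnfaip3 to Nfkb1, by 3.40 times (3.23 to 3.58). Tnfaip3 also differed relative to Nfkbia, by 1.66 times (1.61 to 1.72), although both are feedback inhibitors.

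Levels of different genes were compared per length, in RPKM (RPM per kilobase of the gene length that the authors used). Nfkbia had the highest level, 448.7 RPKM in WT and 495.7 RPKM in Igfbp7-/-, above more than 99% of genes in each library. Tnfaip3 was second in both, with 150.8 and 276.9 RPKM. In WT there followed Nfkb1 (73.6 RPKM), Rela (67.0 RPKM) and Nfkbiz (64.0 RPKM), the latter pair with overlapping intervals. In Igfbp7-/- Nfkbiz (127.1 RPKM) came next after Tnfaip3, ahead of Rela (67.6 RPKM) and Nfkb1 (39.8 RPKM).

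The lower part of the order also changed. Nfkb2 (31.4 RPKM in both) lay above Relb in WT (24.8 RPKM), and in Igfbp7-/- Relb (34.4 RPKM) had the higher value, with overlapping intervals. Bcl3 had 16.9 and 18.2 RPKM and Rel 12.7 and 17.2 RPKM, whose intervals overlapped in Igfbp7-/- but not in WT. Ikbkb was last in both libraries, with 6.94 and 6.91 RPKM.

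Summed over the 5 subunit genes the level was similar, 209.6 RPKM in WT and 190.4 RPKM in Igfbp7-/-, but its makeup differed. Nfkb1 supplied 35.1% of the sum in WT and 20.9% in Igfbp7-/-, and Rela, at 32.0% and 35.5%, was the largest part in Igfbp7-/-. The share of Relb was 11.9% in WT and 18.05% in Igfbp7-/-, that of Rel 6.04% and 9.04%, and that of Nfkb2 14.98% and 16.5%. The 4 inhibitor and cofactor genes summed to 680.4 RPKM in WT and 917.9 RPKM in Igfbp7-/-, which is 3.25 and 4.82 times the summed subunits of the same library.

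**Figure D3:**
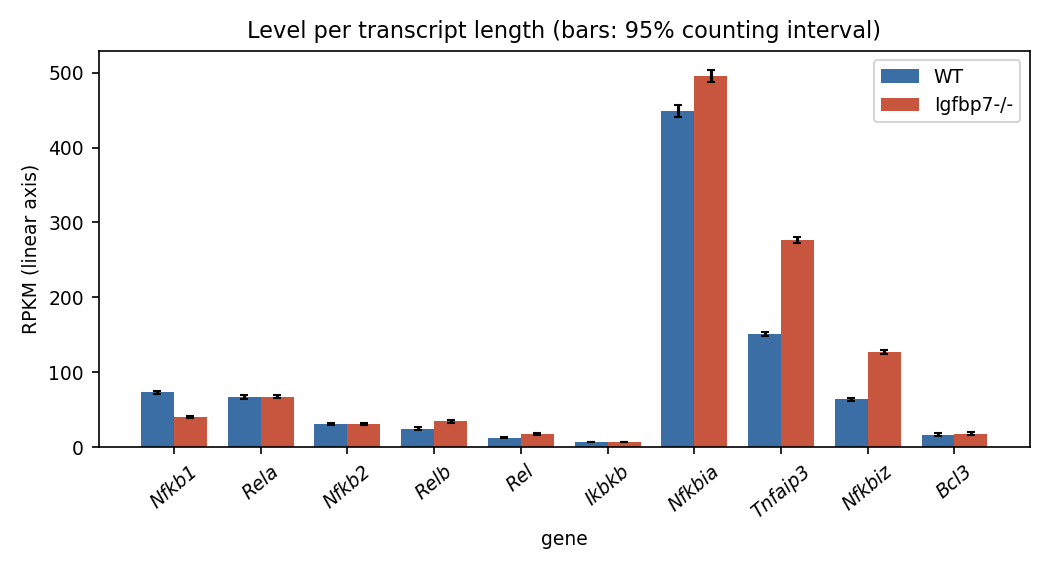
Level of each gene in RPKM on a linear axis from 0, in WT (blue) and Igfbp7-/- (red), with exact Poisson 95% intervals on read pairs. Nfkbia is the tallest in both libraries (448.7 and 495.7 RPKM), and Nfkb1 and Nfkbiz exchange their order, from 73.6 and 64.0 RPKM in WT to 39.8 and 127.1 RPKM in Igfbp7-/-.

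Genes upstream of NF-κB were mostly lower or similar. Of 28 ligand and receptor genes, 24 passed 1 RPM, of which 13 (54.2%) were lower in Igfbp7-/- by at least 1.5 times and 1 was higher, beside 23.0% and 21.4% of all genes, with a median log2 ratio of -0.64. The lowest ratios with at least 10 RPM were those of Tlr9, an endosomal receptor of unmethylated DNA (18.2 RPM in WT against 2.46 RPM), Il1b, the gene of interleukin 1β (53.2 and 9.97 RPM), and Cd40, a receptor of antigen-presenting cells (10.5 and 1.91 RPM). Tlr4, the receptor of lipopolysaccharide, was the gene that was higher (28.3 and 67.3 RPM, log2 ratio 1.25). Outside the rule for named genes and after their values were seen, Tnf (50.3 and 31.9 RPM, log2 ratio -0.66) and Tnfrsf11a, which encodes RANK (77.1 and 38.3 RPM, -1.01), are given as inputs known from this tissue. The RANK ligand gene Tnfsf11 stayed below 1 RPM in both. The summed level of the 28 genes was similar, with 1719 RPM in WT and 1744.5 RPM in Igfbp7-/-. Its most abundant genes, Cd14 (469.9 and 677.4 RPM, 0.53) and Tlr2 (331.2 and 389.5 RPM, 0.23), were higher by less than 1.5 times and are named after their values were seen.

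All 36 adaptor and kinase genes between the receptors and the kinase complex passed the minimum, 5 (13.9%) were higher by at least 1.5 times and 6 (16.7%) were lower, both shares below the 21.4% and 23.0% of all genes. The median log2 ratio was 0.22. Besides Chuk, the highest ratios with at least 10 RPM were those of Tab3 (16.6 against 34.4 RPM) and Tab1 (8.04 and 13.8 RPM), partners of the kinase that activates the IκB kinase complex. The lowest by the same limit were those of Ripk2, the kinase below the Nod receptors (26.3 and 7.05 RPM), Traf1, an adaptor of TNF receptors (26.9 and 13.0 RPM), and Myd88, the adaptor of Toll-like and interleukin 1 receptors (88.7 and 45.0 RPM).

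Among 20 further genes that restrain the pathway, 3 were higher by at least 1.5 times and 3 were lower, smaller shares than the 21.4% and 23.0% of all genes, and the median log2 ratio was 0.09. Cyld, a deubiquitinase, had the highest ratio and went from 70.6 to 180.4 RPM (log2 ratio 1.35, 1.26 to 1.45). Tnip1, which encodes a protein that binds the Tnfaip3 product, had the lowest and went from 280.6 to 93.7 RPM (-1.58, -1.66 to -1.50). Tnfaip3 and this partner thus differed in opposite directions. Other partners of the Tnfaip3 enzyme, named after their values were seen, differed by less than 1.5 times, with log2 ratios of -0.11 for Tax1bp1, 0.41 for Itch and 0.04 for Rnf11. So did Tnip2 (0.06) and Tnip3 (0.11), named likewise.

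Not all of the other IκB genes went with Nfkbia. Nfkbie, which encodes IκBε, was lower (56.3 against 24.7 RPM, log2 ratio -1.18). Outside the rule, Nfkbid, a nuclear family member below 10 RPM, was lower too (8.51 and 4.31 RPM, -0.96), and Nfkbib was similar (36.1 and 39.1 RPM, 0.12). Of the IκB type genes measured, Nfkbiz was thus higher by at least 1.5 times, Nfkbie and Nfkbid were lower, and Nfkbia, Nfkbib and Bcl3 were neither.

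Genes that NF-κB is known to activate were more often lower than higher. Of 29 such genes outside the 10, all with at least 1 RPM in at least 1 library, 16 (55.2%) were lower in Igfbp7-/- by at least 1.5 times, 7 (24.1%) were higher and 6 were neither, and the median log2 ratio was -0.86. Of all genes 23.0% were lower and 21.4% higher, so the share of higher targets was close to that of all genes. The lowest ratios with at least 10 RPM were those of the chemokine genes Ccl5 (103.1 against 13.5 RPM), Cxcl10 (403.8 and 59.9 RPM) and Cxcl2 (1142 and 224.8 RPM). Icam1, an adhesion molecule of endothelial and epithelial cells, had 1778 and 747.6 RPM (log2 ratio -1.25).

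Among the higher target genes, Saa3, an acute phase protein gene of the mammary epithelium, went from 84.3 to 381.2 RPM (log2 ratio 2.18), Ccl20, an epithelial chemokine, had 3.85 and 10.4 RPM (1.41), and Bcl2l1, a survival gene, had 153.5 and 284.2 RPM (0.89). Lcn2, which encodes the iron-sequestering lipocalin and is, like Icam1, named after its values were seen, had 1115 and 1733 RPM (0.64). The list was not chosen by dependence on IκBζ, and the dependence of its genes on IκBζ was not tested. In the same list Il6 (260.0 and 55.9 RPM, -2.22) and Csf3 (912.0 and 225.9 RPM, -2.01), named after their values were seen, were lower. Together the 29 targets held 10692 RPM in WT against 6107 RPM, while the 10 NF-κB genes held 2367 and 3141 RPM. The higher sum of the 10 came from Tnfaip3 (669.2 and 1229 RPM) and Nfkbiz (246.6 and 489.8 RPM).

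**Figure D4:**
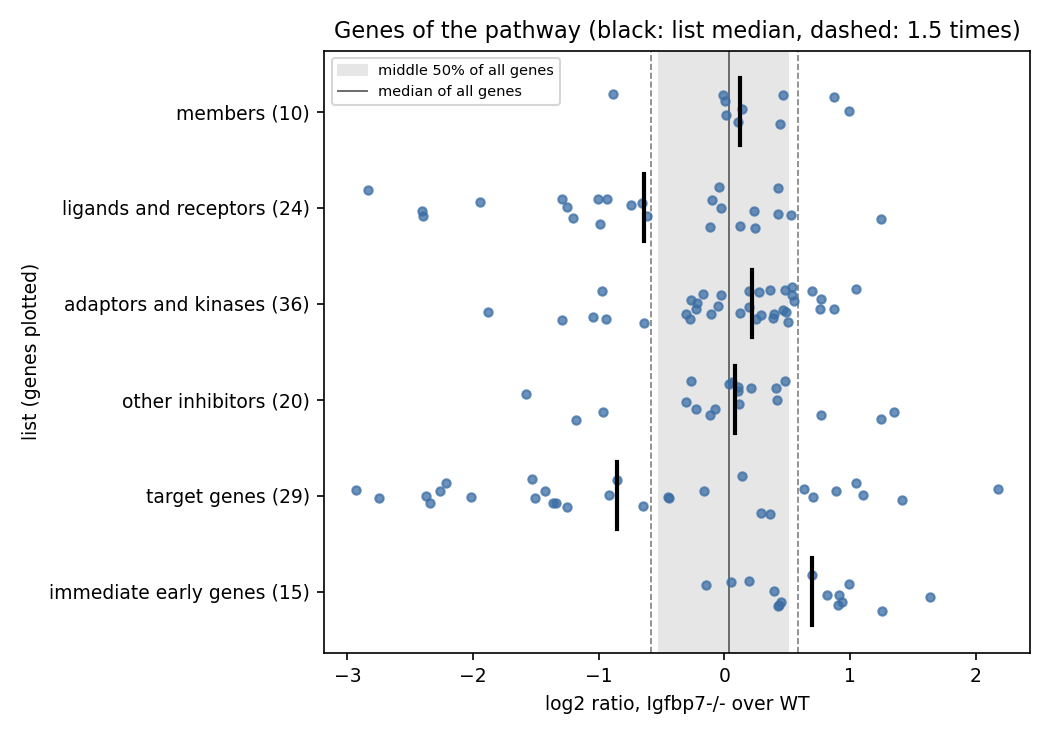
Log2 ratio of Igfbp7-/- to WT for each gene past 1 RPM in the lists of the pathway (points), with the list median (black bar), the middle 50% and median of all 14026 genes (grey) and 1.5 times (dashed). The target genes spread from -2.93 to 2.18 around a median of -0.86, whereas the 10 NF-κB genes (labelled members) lie between -0.89 and 0.99.

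The makeup of the cells differed between the libraries by their markers, and fewer cells of a type and less RNA per cell cannot be told apart in bulk RNA. Of 10 leukocyte markers 9 were lower in Igfbp7-/- by at least 1.5 times, beside 23.0% of all genes. The summed level of the 10 went from 727.6 to 152.1 RPM. Cd74, the invariant chain of antigen-presenting cells, had 526.6 and 69.7 RPM, Lyz2 66.9 and 24.1 RPM, and Cd68 43.8 and 17.6 RPM. Ptprc, named after its values were seen, and Pecam1 encode CD45 and CD31, antigens used for depletion, and were still present, with 43.5 and 18.1 RPM and with 322.5 and 88.9 RPM. None of the 10 leukocyte markers was at 0.

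Of 5 endothelial markers 4 were lower (summed 1055 against 352.3 RPM), among them Pecam1, Cdh5 (583.7 and 183.5 RPM) and Emcn (54.0 and 21.9 RPM). Of 6 fibroblast markers 4 were lower (9060 and 4582 RPM), led by Lum (401.9 and 84.1 RPM), Col3a1 (4670 and 1951 RPM) and Col1a2 (1416 and 815.2 RPM). Of 5 myoepithelial markers 4 were lower (2876 and 941.3 RPM), led by Acta2 (1052 and 226.7 RPM), Krt5 (579.3 and 182.3 RPM) and Myh11 (883.0 and 343.5 RPM). All 5 milk protein genes were lower (110194 and 41288 RPM), by log2 ratios from -1.83 for Wap to -1.08 for Lalba. These are the same direction as Nfkb1 and most targets. Of all genes 23.0% were lower, and each of these lists was short.

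Luminal epithelial markers were mixed. Their summed level went from 1100 to 2832 RPM, and 3 of 5 were higher, beside 21.4% of all genes. The 3 were Krt18 (250.4 and 1174 RPM), Krt8 (268.1 and 789.0 RPM) and Krt19 (105.5 and 291.8 RPM), the direction of Nfkbiz and Tnfaip3. The other two, named after their values were seen, differed by less than 1.5 times and in opposite directions, with log2 ratios of 0.51 for the adhesion gene Epcam and -0.52 (-0.61 to -0.43) for Elf5, a transcription factor of alveolar cells. The 3 erythroid markers past the minimum did not differ by 1.5 times, and the summed level of the erythroid list was 888.5 and 997.4 RPM. Of 4 adipocyte markers 3 passed the minimum. Of these 2 were lower and 1, Lep, was higher (8.04 and 16.8 RPM), beside 23.0% and 21.4% of all genes. The summed level of the adipocyte list was small (23.9 and 19.4 RPM). The part of these cells in the values of the NF-κB genes was not tested. Their levels cannot be assigned to a cell type from these libraries.

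**Figure D5:**
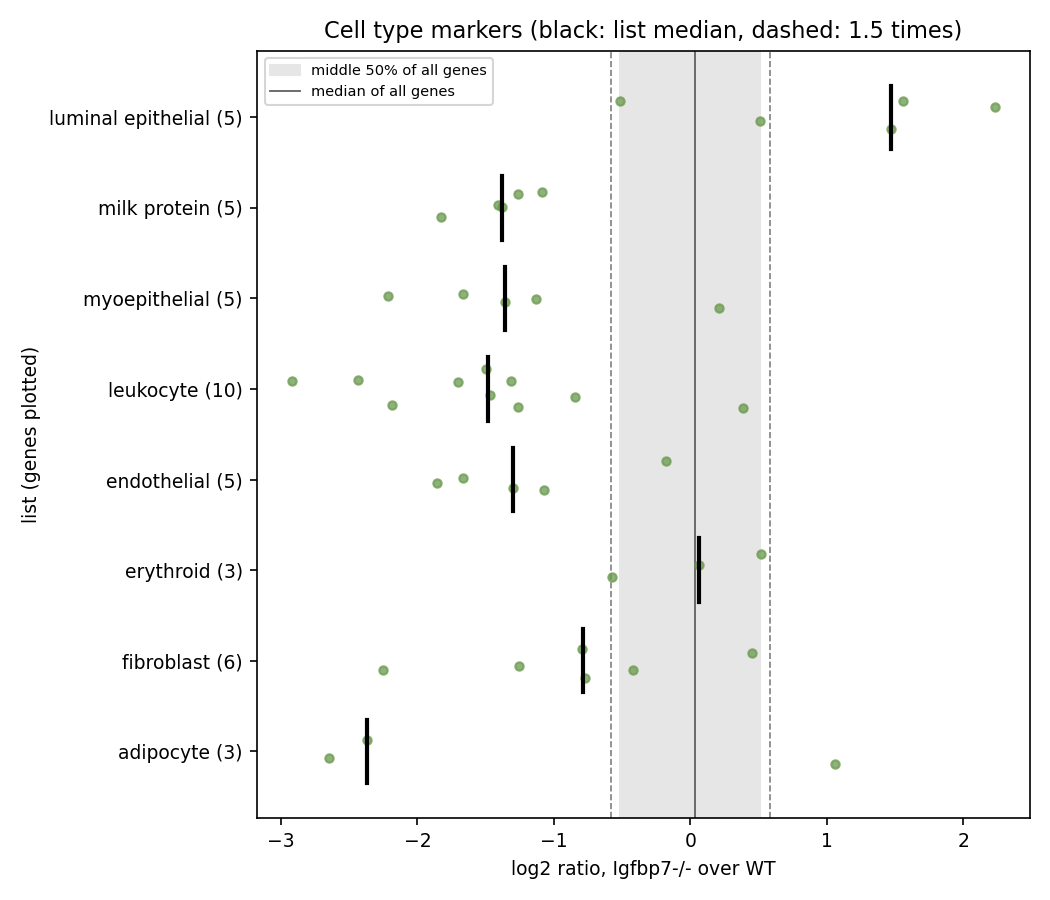
Log2 ratio of Igfbp7-/- to WT for each marker past 1 RPM (points) by cell type, with the list median (black bar), the middle 50% and median of all genes (grey) and 1.5 times (dashed). Leukocyte, endothelial, myoepithelial and milk protein lists have medians between -1.49 and -1.30, and the luminal list has a median of 1.47 with genes from -0.52 to 2.23.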

How the data were processed

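Poly(A) RNA of lineage-depleted MECs was sequenced by the authors as paired-end reads on a SOLiD instrument and mapped with a Bowtie-based pipeline in GeneSifter, with at most 3 mismatches. The submitters' processing notes name Bowtie 0.12.3, SAMtools 0.1.15 and mm9, while the methods name a human build. The methods state that ribosomal RNA was filtered, yet ribosomal RNA rows remain. The gene annotation, the use of strand and the treatment of reads that map to several places are not given in the sources used here.

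The authors deposited raw counts per gene, RPM and RPKM. The deposited RPM is the count divided by 1 total per library that is larger than the listed counts, and the deposited RPKM is that RPM divided by a gene length. In each library 50 rows without a symbol (0.0495% and 0.0670% of listed reads) were left out. A blank count was read as 0.

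Log2 ratios were computed as log2 of RPM plus 0.1, which understates differences of weakly expressed genes, for genes reaching 1 RPM in either library. A gene was called at a ratio of 1.5. No test was made with 1 library per genotype. Since 75.8% and 74.1% of counts from 1 to 20 were even, counts were halved for Clopper-Pearson intervals of ratios and exact Poisson intervals of levels. Intervals of changed gene pairs used a normal approximation on log counts. No molecular identifiers are described, so intervals leave out duplication of reads by PCR. Gene positions came from the NCBIM37 annotation, and promoters from RefSeq tables of GRCm38.p6.

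The 10 genes and all lists were chosen with earlier results of these data known. One marker gene is not reported here. The named genes were the 10, Igfbp7 and, per list, the 3 highest and 3 lowest ratios past 1.5 times with at least 10 RPM in 1 library. Others are marked as outside this rule or as named after their values were seen. Lalba, Tnfsf11, Hspa1a and Hspa1b were also named outside the rule, after their values were seen. Alternatives were other pseudocounts, minimums, thresholds and scalings. The calculations were tested on simulated data. Python 3.11.15, numpy 2.4.6, scipy 1.17.1, pandas 2.3.3, matplotlib 3.10.9, R 4.3.3, edgeR 4.0.16 (TMM factors only) and DESeq2 1.42.0 (size factors only) were used.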

Additional observations from a re-analysis of the deposited data

How the results depend on the processing

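No paired analysis was possible because each genotype had 1 library, and no library could be left out for the same reason. Nfkb1, Nfkbiz and Tnfaip3 kept their direction under the 8 alternatives that can change a ratio (pseudocounts, RPKM and scalings), between -0.92 and -0.70, 0.96 and 1.18, and 0.84 and 1.06 on the log2 scale. At a ratio threshold of 2 none of the 10 genes was called (0 higher, 0 lower), since Nfkbiz at 1.99 fell just short of it. The same threshold left 8 of 24 ligand and receptor genes lower, and 1 of 36 adaptor and kinase genes higher and 3 lower. It left 4 of 29 target genes and 2 of 15 genes of the immediate early list higher. Of all genes, 9.64% were higher and 13.8% were lower at this threshold. Scaling to reads on listed genes gave 4 of 10 higher NF-κB genes, 4 of 24 higher ligand and receptor genes, 12 of 36 higher adaptor and kinase genes and 6 of 20 higher further inhibitors. Of all genes 30.2% were higher at this scaling. Without the 20 most abundant genes in that sum there were 8 higher adaptor and kinase genes, beside 23.8% of all genes. Asking for the whole interval beyond 1.5 times left 8 of 24 ligand and receptor genes lower, beside 14.6% of all genes. It left 3 of 36 adaptor and kinase genes and 4 of 29 target genes higher, beside 11.2% of all genes. A minimum of 10 RPM left 1 higher further inhibitor, beside 20.7% of all genes that were higher. Over all genes, the 3006 higher and 3231 lower genes became 4741 and 5279 without a minimum, 1696 and 1672 with 10 RPM, 1352 and 1936 at a threshold of 2, and 1565 and 2048 by the interval, because more or fewer genes could pass. Intervals on single reads were narrower. Depth limited the NF-κB genes little, since the smallest count was 1066 reads, and the spread between animals was not measured.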

Other observations

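Immediate early genes, which are switched on within minutes of a stimulus and include the AP-1 factors that act on many promoters together with NF-κB, were higher or similar in the Igfbp7-/- library. The list of 15 genes also holds the heat shock genes Hspa1a and Hspa1b. Of the 15, 8 (53.3%) were higher by at least 1.5 times, beside 21.4% of all genes, and 0 were lower. The median log2 ratio was 0.70. The highest ratios were those of Myc, the growth regulator (107.6 against 335.6 RPM, log2 ratio 1.64), Fosb, an AP-1 component (290.5 and 692.7 RPM, 1.25), and Btg2, an antiproliferative gene (191.0 and 380.1 RPM, 0.99). Named after their values were seen, Zfp36 (-0.15) and Dusp1 (0.05), which like Tnfaip3 encode brakes on inflammatory signalling, did not share that difference, nor did Fos (0.45) and Jun (0.43) reach 1.5 times. The heat shock genes Hspa1a and Hspa1b, both counted among the 8 higher genes, are nearly identical in sequence, so that their reads may be divided between them. Their log2 ratios were 0.82 and 0.70, and the value of Hspa1b is the median of the list.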
